A study of Mus musculus with 28 samples.

Results

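The genes described here are 10 members of the actin machinery, chosen by symbol: 3 actin-capping subunits (Capza3, Capza1 and Capzb), 5 testis actin-like proteins (Actl7a, Actl7b, Actl9, Actrt1 and Actrt2) and 2 testis profilins (Pfn3 and Pfn4). They are 10 of 18193 genes, and 15 of 34945 probe sets with 1 gene symbol, on 28 one-colour mouse expression arrays. The arrays compared testis RNA of adult male C57BL/6 mice that lack Ddx25 (KO) with that of wild-type (WT) mice. Ddx25 encodes GRTH, the gonadotropin-regulated testicular RNA helicase, and the study profiled testis polysomes for transcripts regulated by it. The 10 groups were total testis polysome RNA of KO and WT mice (3 arrays each), round spermatids of KO and WT mice (3 each), spermatocytes of KO and WT mice (4 each), the Leydig cell fraction of KO and WT mice (2 each), and WT polysome RNA recovered with GRTH antibody (GRTH IP, 2 arrays) or with control IgG (IgG IP, 2 arrays). Polysomes came from a sucrose gradient and cells from centrifugal elutriation, which enriches cells by size and density. The labels call the KO mice GRTH null and do not say whether replicates came from separate animals. P-values therefore rest on the spread between arrays of a group, and that spread may be technical.

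Actin filaments in spermatids anchor the acrosome to the nucleus, line the perinuclear theca and take part in reshaping the cell. Capping protein, a dimer of an alpha and a beta subunit, closes the growing end of a filament. Capza3 is the alpha subunit of male germ cells, Capza1 is a widely expressed alpha subunit, and Capzb makes several beta subunits through alternative splicing. Profilins bind actin monomers and feed them to growing filaments. The actin-like proteins resemble actin and are known from the perinuclear theca and acrosomal region of spermatids. Mice without Ddx25 are known to be sterile, with spermatids that fail to elongate.

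Promoter windows from RefSeq (build GRCm38.p6, 250 bases before to 50 after an annotated start) were matched for 9 of the 10 members, all but Capza3. For Capzb and Pfn4 the start used lies inside the span that RefSeq annotates for the gene, so their windows are not those of its outermost start. Both strands were searched for 4 motifs that were chosen after the sequences had been seen. The cyclic AMP response element TGACGTCA, bound by the spermatid regulator CREM, was in 0 of the 9 windows and in 1.79% of all 32851 windows. Its part TGACG, which the full element also contains, was in 2 of the 9 windows (Capzb and Pfn3) and in 20.8% of all. The variant TGATGTCA was in 3 of the 9 windows (Actl7a, Actl7b and Actl9) and in 3.62% of all. TATAAA was in 1 of the 9 (Actl9) and in 13.6% of all. The 3 windows with the variant are printed because Actl7a and Actl7b are neighbours on chromosome 4, transcribed away from each other, while Actl7a and Actl9 had the most similar signal patterns of the 3. The Pfn3 window is printed because it holds TGACG on both strands. Each sequence runs 5′ to 3′ on the gene's own strand, and capitals mark the motifs, written as their reverse complement where they lie on the opposite strand. The windows are chr4:56743172-56743471 (plus strand), chr4:56741376-56741675 (minus strand), chr17:33432649-33432948 (plus strand) and chr13:55415183-55415482 (minus strand).
Actl7a: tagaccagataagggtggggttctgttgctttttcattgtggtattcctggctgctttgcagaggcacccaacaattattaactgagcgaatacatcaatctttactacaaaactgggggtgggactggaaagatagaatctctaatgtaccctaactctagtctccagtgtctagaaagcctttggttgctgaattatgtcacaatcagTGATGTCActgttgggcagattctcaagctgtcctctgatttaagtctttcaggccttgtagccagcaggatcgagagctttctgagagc
Actl7b: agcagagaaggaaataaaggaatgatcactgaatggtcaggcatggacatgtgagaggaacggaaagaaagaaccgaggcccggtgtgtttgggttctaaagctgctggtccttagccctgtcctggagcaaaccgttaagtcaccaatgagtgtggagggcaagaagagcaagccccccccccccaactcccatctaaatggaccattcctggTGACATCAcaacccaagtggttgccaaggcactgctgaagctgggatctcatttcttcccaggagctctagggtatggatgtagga
Actl9: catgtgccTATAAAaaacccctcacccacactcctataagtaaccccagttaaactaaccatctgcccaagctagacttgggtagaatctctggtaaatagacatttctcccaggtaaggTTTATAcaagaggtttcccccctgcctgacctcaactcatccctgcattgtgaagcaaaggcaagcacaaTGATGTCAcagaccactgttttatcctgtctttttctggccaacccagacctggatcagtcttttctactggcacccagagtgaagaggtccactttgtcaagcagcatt
Pfn3: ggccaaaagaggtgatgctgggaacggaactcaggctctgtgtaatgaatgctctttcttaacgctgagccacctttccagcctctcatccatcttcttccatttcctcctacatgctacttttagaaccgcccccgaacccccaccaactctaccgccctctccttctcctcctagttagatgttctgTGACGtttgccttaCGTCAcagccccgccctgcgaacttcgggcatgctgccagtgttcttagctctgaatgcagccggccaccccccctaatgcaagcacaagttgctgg
The variant began 40 bases before the gene start in Actl7a, 36 bases before it in Actl7b, on the opposite strand, and 60 bases before it in Actl9. In Pfn3 TGACG began 61 bases before the start on the gene's strand and 47 bases before it on the opposite strand. In Actl9 the 2 copies of TATAAA lay 242 and 130 bases before the start, the second on the opposite strand. A match of letters describes the window and not the binding of a factor.

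Ddx25 itself checked the labels. Its signal averaged 822.1 ± 233 in KO and 16870 ± 3710 in WT polysome RNA (SD, n = 3 each), and 4234 ± 366 in KO and 16690 ± 1550 in WT round spermatids (SD, n = 3 each). In spermatocytes it was 20.7% and in the Leydig fraction 25.1% of WT. The free-text descriptions of 4 arrays (KO polysome 1, WT polysome 1 and 2, IgG IP 1) name another group than their titles, which were followed, and 4 polysome arrays were deposited without scaling. Leydig markers summed to 59020 to 59820 in the KO and 32030 to 32090 in the WT Leydig fraction, against at most 9715 in any array of spermatocytes or round spermatids. The Leydig fraction also held spermatid RNA, since 12 markers of elongating spermatids summed to 129300 to 131700 in KO and 193600 to 196100 in WT. These 12 markers, the protamines among them, were all lower in KO in each of the 4 KO comparisons. Their sums were 30160 to 57660 in KO and 226200 to 457900 in WT polysome RNA, 213900 to 269500 in KO and 337700 to 468900 in WT round spermatids, and 75620 to 82960 in KO and 130800 to 160200 in WT spermatocytes. No marker of that list had a mean of 0 in any group. Without detection calls such a signal does not show that a transcript was present. The part of these markers in the results below was not tested, and in such bulk samples fewer cells of a type and less RNA per cell cannot be told apart.

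All values are signals scaled to a trimmed mean of 500 per array, each gene is represented by its brightest probe set, and levels are not comparable between genes. Capza3 had 10750, 9796 and 9517 in KO round spermatids and 20310, 19290 and 15980 in WT round spermatids, its highest group. It had 6123 and 6147 in the KO and 8942 and 8820 in the WT Leydig fraction, and 2548 to 2672 in KO and 4522 to 4903 in WT spermatocytes. Its lowest group was KO polysome RNA, with 1621, 1665 and 926.3, against 7371, 7739 and 8558 in WT polysome RNA. From the fourth group downward no neighbours in this order overlapped, whereas the 4 groups at the top, which include both IPs, overlapped in succession.

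Actrt1 had the same lowest and highest groups. Its signal was 53.87, 92.46 and 77.03 in KO polysome RNA, which was 3.31% of the mean of WT round spermatids, where it was 2240, 2321 and 2179. Actl9, Actl7a, Actrt2 and Capzb were also highest in WT round spermatids. Their lowest groups by mean differed: GRTH IP for Actl7a (2258 ± 202, SD, n = 2), KO polysome RNA for Actl9 (2099 ± 715, SD, n = 3), and KO spermatocytes for Actrt2 (1971 ± 163, SD, n = 4) and Capzb (3128 ± 67.1, SD, n = 4). For Actl7a, Actl9 and Capzb, though not for Actrt2, these arrays overlapped with those of another group. Which group is lowest is not settled for those genes. Leaving the IPs aside, Actl7b and Pfn3 were highest in WT round spermatids as well. The IgG IP mean lay above that group for both genes and the GRTH IP mean for Pfn3, and in each case the arrays overlapped with those of WT round spermatids.

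Capza1 and Pfn4 had another order. Capza1, the alpha subunit of most cells, was highest in spermatocytes, with 13760 to 16900 in KO and 12840 to 15790 in WT, which overlapped. Pfn4 was highest in WT spermatocytes (5905 to 7506) and lowest in KO polysome RNA (1027 to 2066). Its 7 highest groups overlapped in succession, so its order among them is not settled by these arrays.

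**Figure D1:**
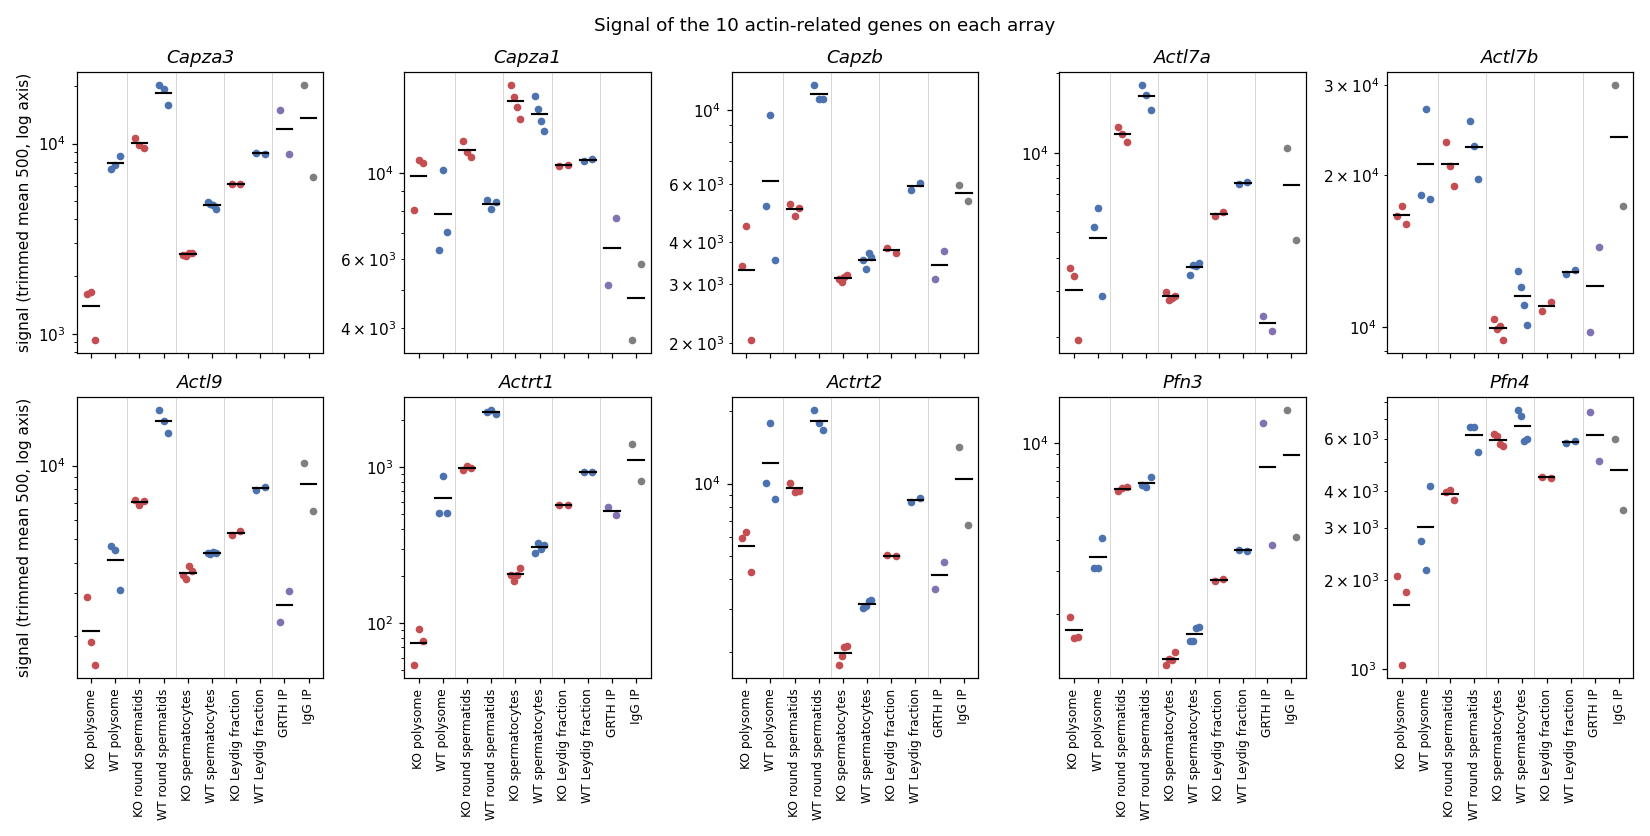
Signal of each of the 10 genes (brightest probe set, log axis that differs between panels) on every array of the 10 groups, with black bars at group means and KO in red left of WT in blue. Capza3 and Actrt1 are lowest in KO polysome RNA and high in WT round spermatids, while Capza1 is highest in spermatocytes.

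The step from spermatocytes to round spermatids, which marks the end of meiosis, was compared first within each genotype. In KO cells 8 members were higher in round spermatids, against 38.8% of the 9097 genes tested, and Capza1 and Pfn4 were lower, against 46.5%. In WT cells the same 8 were higher, against 36.2%, Capza1 was lower, against 51%, and Pfn4 did not pass the test. The median log2 difference of the 10 members was 1.5 in KO and 1.88 in WT, beside -0.10 and -0.24 over all genes tested. Tests were made with limma, with Benjamini-Hochberg adjustment over all genes tested and a threshold of 0.05.

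Actrt1 differed most between the stages in WT. It had 958.2, 1017 and 991.4 in KO round spermatids and 187.8 to 226.9 in KO spermatocytes, a log2 difference of 2.18 ± 0.07 (SE). In WT the signals were 2179 to 2321 in round spermatids and 283.4 to 326.5 in spermatocytes, a difference of 2.81 ± 0.06. Actrt2 followed with 2.27 ± 0.07 in KO and 2.52 ± 0.08 in WT, and Actl7a with 2.03 ± 0.06 in KO and 2.15 ± 0.08 in WT. None of these groups overlapped.

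Pfn3, a testis profilin, was higher by 2.30 ± 0.06 in KO and 2.04 ± 0.07 in WT, and Capza3 by 1.93 ± 0.06 in KO and 1.96 ± 0.09 in WT. Actl9 was higher by 0.96 ± 0.06 in KO and 1.79 ± 0.08 in WT, and Capzb by 0.68 ± 0.05 in KO and 1.65 ± 0.06 in WT. The smallest of the 8 differences in WT was that of Actl7b (1.07 ± 0.07 in KO and 0.97 ± 0.11 in WT), with signals of 20990 ± 2100 in KO round spermatids and 9958 ± 388 in KO spermatocytes, against 22650 ± 2960 and 11540 ± 1230 in the matching WT cells (SD, n = 3 for round spermatids and 4 for spermatocytes). Capza1 ran the other way, with 11490 ± 550 in KO round spermatids and 15310 ± 1340 in KO spermatocytes, or -0.41 ± 0.08 on the log2 scale (adjusted p = 0.00089, limma). Its WT difference was -0.76 ± 0.08 (adjusted p = 1.41e-05, limma). Pfn4 differed by -0.60 ± 0.06 in KO cells (adjusted p = 1.06e-05, limma), and its WT difference was -0.10 ± 0.11 (adjusted p = 0.426, limma). With the replicate number as a block the WT difference of Pfn4 was -0.15 with an adjusted p of 0.0447, and 51.1% of genes were lower under that fit. Under quantile normalization it was -0.38 (adjusted p = 0.00945, limma).

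**Figure D2:**
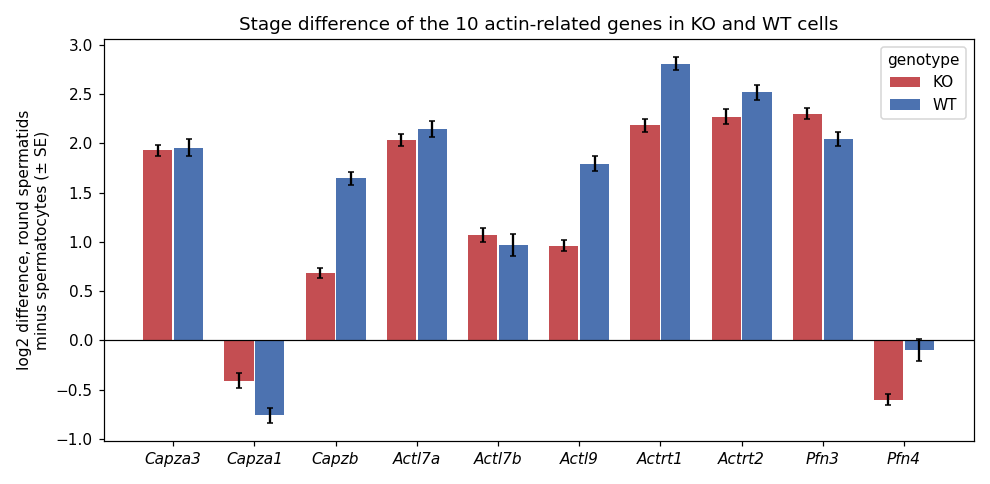
Log2 difference in signal between round spermatids and spermatocytes (± SE) for each gene, KO in red left of WT in blue. The bars are positive for 8 genes in both genotypes and shorter in KO than in WT for Capzb, Actl9 and Actrt1.

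In total polysome RNA, the sample the study was built on, the knockout effect fell on 2 of the 9 members that passed the filter on low signals. Capza3 and Pfn3 were lower in KO, against 5.77% of all genes tested, and 0 of the 9 were higher, against 0.572%. The members that passed had a median log2 difference of -0.88, beside 0.13 over all genes tested. Actrt1 was below the filter, which kept genes whose mean signal reached the median gene's.

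Capza3 had 1621, 1665 and 926.3 in KO polysome RNA and 7371, 7739 and 8558 in WT polysome RNA. The groups were far apart, with a log2 difference of -2.52 ± 0.26 (adjusted p = 0.000576, limma), or 17.8% of the WT mean. Actrt1 had 53.87, 92.46 and 77.03 in KO and 510.7, 873 and 508.7 in WT polysome RNA. Its log2 difference was -2.81 ± 0.31, and it passed when all 18193 genes were tested (adjusted p = 0.00532, limma), where 1.97% of genes were lower. All KO arrays were again far below all WT arrays. The pseudocount of 16 shrinks the log2 difference of Actrt1 at such low signals. Before rescaling, the trimmed means were 130 and 29.75 for KO polysome 1 and 2, and 167.8 and 54.54 for WT polysome 1 and 2. The Actrt1 signals of these arrays were therefore deposited lower than printed here, whereas KO polysome 3 (77.03) was deposited with scaling. Without detection calls the true size of the fall is not known.

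Pfn3 had 1936, 1601 and 1616 in KO and 3072, 3089 and 4088 in WT polysome RNA, a difference of -0.98 ± 0.21 (adjusted p = 0.0247, limma). Its groups did not overlap, but the call was lost when any 1 array other than WT polysome 2 was left out, with adjusted p-values from 0.0598 (without KO polysome 1) to 0.0991 (without KO polysome 2). It was lost as well when no filter was used (adjusted p = 0.107, limma). Without the 3 arrays of conflicting description, which leaves WT polysome 3 alone on its side and assumes that it varies like the KO arrays, Capza3 was at -2.77 (adjusted p = 0.0147), Pfn3 at -1.34 (adjusted p = 0.106) and Actrt1 at -2.39 (adjusted p = 0.405 over all genes).

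The other members of the actin-like family were lower on average without passing the test. Actrt2 had 5950, 6280 and 4291 in KO and 10050, 17810 and 8662 in WT polysome RNA (-1.09 ± 0.30, adjusted p = 0.0723, limma). Actl9 had 2896, 1887 and 1514 in KO and 4673, 4518 and 3077 in WT (-0.99 ± 0.29, adjusted p = 0.0872, limma). The groups of both genes stayed apart, and 6 of the 9 members tested were lower without overlap, as were 12.8% of all genes. For Actl7a, which holds the acrosome to the nucleus in mice, the values were 3675, 3409 and 1952 in KO and 5244, 6202 and 2860 in WT, which overlapped (-0.64 ± 0.35, adjusted p = 0.351, limma).

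Same-numbered KO and WT polysome arrays deviated together, and with that number as a block 7 of the 9 members were lower, against 11.8% of all genes. The 5 added by the block were Capzb (adjusted p = 0.00337), Actl7a (0.0136), Actl9 (0.00109), Actrt2 (0.000782) and Pfn4 (0.00445), with log2 differences between -1.09 and -0.64. Actl7b was at -0.31 (adjusted p = 0.199 with the block) and Capza1 at 0.34 (adjusted p = 0.16 with the block). Capza1 had 8020, 10810 and 10640 in KO and 6362, 10170 and 7066 in WT polysome RNA, so its groups overlapped.

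In round spermatids 7 members were lower in KO, against 22.4% of all genes tested, and Capza1 was higher, against 41%. The median difference of the 10 was -0.77, beside 0.15 over all genes. Round spermatid markers summed to 94270 to 102400 in KO and 123500 to 142600 in WT round spermatids, and 5 of 9 were lower and 1 higher in KO. Of the same 9 markers, 7 were lower in KO spermatocytes, 7 in the KO Leydig fraction and 2 in KO polysome RNA, and their part in the results was not tested. Actrt1 and Capzb had the largest falls. Actrt1 had 958.2, 1017 and 991.4 in KO and 2240, 2321 and 2179 in WT, a log2 difference of -1.17 ± 0.06 (adjusted p = 1.15e-05, limma). Capzb, the beta subunit, had 5223, 4811 and 5056 in KO and 11900, 10770 and 10780 in WT (-1.15 ± 0.07, adjusted p = 2.05e-05, limma). Actl9 had 7219, 6881 and 7167 in KO and 16950, 15320 and 13570 in WT (-1.10 ± 0.09, adjusted p = 5.72e-05, limma). In each of the 3 every KO array lay far below every WT array, with KO means between 44% (Actrt1) and 46.4% (Actl9) of WT.

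Actrt2 fell to 52.3% and Capza3 to 54.1% of their WT means in KO round spermatids. Capza3 differed by -0.88 ± 0.10 there (adjusted p = 0.000279, limma), a smaller difference than in polysome RNA. Pfn4 fell to 63.1% and Actl7a to 71.6% of WT, with log2 differences of -0.66 ± 0.09 and -0.48 ± 0.10. The Actl7a difference was -0.16 under quantile normalization (adjusted p = 0.0289, limma), and its call was lost when each probe set was tested (adjusted p = 0.0552) and with all groups in 1 fit (adjusted p = 0.184). The 2 without a call were Pfn3, with 6365, 6528 and 6623 in KO and 6728, 6617 and 7260 in WT (-0.08 ± 0.07, adjusted p = 0.336, limma), and Actl7b (-0.11 ± 0.12, adjusted p = 0.447, limma). Both pairs of groups overlapped. Under quantile normalization Actl7b was higher in KO round spermatids (0.24, adjusted p = 0.00406, limma), so its direction depends on the scaling.

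Capza1 rose in KO round spermatids, with 12090, 11370 and 11010 against 8538, 8101 and 8436 in WT (0.46 ± 0.07, adjusted p = 0.000766, limma). Every KO array lay above every WT array. Markers of spermatocytes, where Capza1 was brightest, summed to 25180 to 25560 in KO and 17840 to 18710 in WT round spermatids, and 5 of 8 were higher in KO. Their part in the Capza1 result was not tested. The second Capza1 probe set gave 0.71 ± 0.13 (adjusted p = 0.0189 over all probe sets).

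Spermatocytes also showed 7 members lower in KO, against 17.8% of all genes tested, and 0 higher, against 19.6%. The differences were smaller, with a median of -0.30 beside 0.03 over all genes. Capza3 had 2591, 2548, 2672 and 2644 in KO and 4903, 4784, 4738 and 4522 in WT, a difference of -0.85 ± 0.04 (adjusted p = 8.52e-07, limma). Actrt2 had 1758, 1930, 2084 and 2112 in KO and 3031, 3105, 3259 and 3277 in WT, a difference of -0.68 ± 0.06 (adjusted p = 4.58e-05, limma). Every KO array of both genes lay below every WT array. The other 5 called members differed by -0.54 ± 0.07 for Actrt1, -0.36 ± 0.05 for Actl7a, -0.34 ± 0.06 for Pfn3, -0.27 ± 0.05 for Actl9 and -0.18 ± 0.05 for Capzb. Elongating spermatid markers were measured in these spermatocyte samples too, and their sums, given above, were lower in KO.

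The 3 spermatocyte differences without a call were those of Actl7b (-0.21 ± 0.08, adjusted p = 0.0571), Pfn4 (-0.16 ± 0.08, adjusted p = 0.178) and Capza1 (0.11 ± 0.08, adjusted p = 0.333), all with limma. With the replicate number as a block all 3 passed, Actl7b (adjusted p = 0.0194) and Pfn4 (adjusted p = 0.0492) lower and Capza1 (adjusted p = 0.0183) higher, when 22% of all genes were lower and 27.5% higher. Actl7b also passed without WT spermatocyte array 4 (adjusted p = 0.0129). When arrays 1 and 2, and arrays 3 and 4, which resembled each other, were averaged before the fit, 4 members remained called, and the calls of Capzb, Actl9 and Pfn3 were lost. A single fit over all 10 groups, with its larger spread, called 1 member. Of all genes tested, 772 were lower with near arrays averaged and 338 in the single fit, against 1623 in the main fit.

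In the Leydig fraction 9 members were lower in KO, against 39.3% of all genes tested, and 0 were higher, against 38.6%. The differences ran from -0.77 ± 0.03 for Actrt2 to -0.22 ± 0.03 for Actl7b, with Actrt1 at -0.70 ± 0.02, Capzb at -0.64 ± 0.03 and Capza3 at -0.53 ± 0.02. Actrt2 had 5057 and 4981 in KO and 8387 and 8730 in WT. Capza1 had 10430 and 10520 in KO and 10770 and 10860 in WT (-0.05 ± 0.02, adjusted p = 0.0966, limma). The SD of log2 differences between the 2 arrays of a genotype was 0.0765 in KO and 0.0884 in WT. With the spread of all 10 groups in 1 fit, 0 members were called here. Of 7087 genes called, 3577 were lower, and with arrays centred on their median 6299 of 8037 were lower. In this fraction 6 of 6 Leydig markers and 4 of 4 macrophage markers were higher and 12 of 12 elongating spermatid markers lower in KO.

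**Figure D3:**
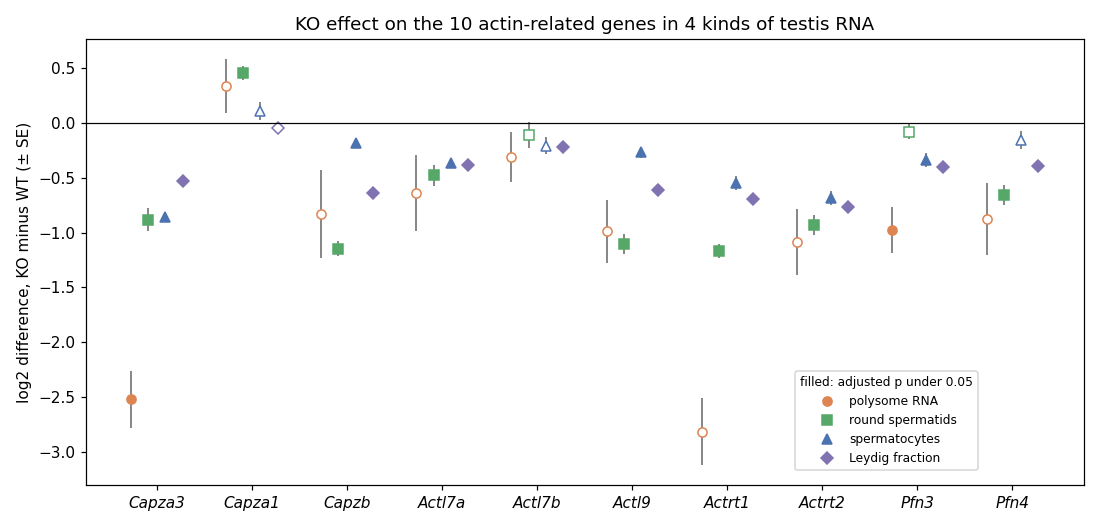
Log2 difference of KO minus WT (± SE) for each gene in polysome RNA, round spermatids, spermatocytes and the Leydig fraction, filled where the adjusted p was under 0.05. Capza3 and Actrt1 stand lowest in polysome RNA, where Actrt1 is drawn open because it was below the filter, and Capza1 lies between -0.05 and 0.46 in all 4.

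The KO effects of the 2 germ cell stages were set against each other in 1 fit. The effect was more negative in round spermatids than in spermatocytes for 4 members, against 13.7% of all genes tested, and more positive for 2, against 32.3%. These counts depend on the scaling. They were 4 lower and 5 higher under quantile normalization, and 5 lower and 0 higher with arrays centred on their median. Of all genes called, 1687 of 4151 were lower under quantile normalization and 1565 of 3540 with that centring. The median difference over all genes was 0.14. Capzb differed most, by -0.96 ± 0.08 (adjusted p = 1.67e-06), then Actl9 by -0.83 ± 0.10 (adjusted p = 2.13e-05), Actrt1 by -0.63 ± 0.09 (adjusted p = 0.000122) and Pfn4 by -0.50 ± 0.13 (adjusted p = 0.00727), all with limma. The Pfn4 call was lost with near arrays averaged (adjusted p = 0.117) and when each probe set was tested (adjusted p = 0.0504), and all groups in 1 fit called none of the 4. Capzb had 45.1% of WT in round spermatids and 88.1% in spermatocytes.

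The 2 positive differences were those of Capza1 (0.35 ± 0.11, adjusted p = 0.02) and Pfn3 (0.26 ± 0.09, adjusted p = 0.0327). Neither passed with the arrays centred on their median or with no filter. The Capza1 call was also lost without KO round spermatid array 1 (adjusted p = 0.051), and the Pfn3 call without any 1 of 8 arrays (WT spermatocyte 3 or 4, KO spermatocyte 1 or 3, WT round spermatid 1 or 2, KO round spermatid 2 or 3), with adjusted p-values from 0.054 to 0.0778. Capza3 had nearly equal effects in the 2 stages (a difference of -0.03 ± 0.10, adjusted p = 0.851, limma). Actrt2 was at -0.25 ± 0.11 (adjusted p = 0.0761), Actl7a at -0.12 ± 0.10 (adjusted p = 0.365) and Actl7b at 0.10 ± 0.14 (adjusted p = 0.584). Under quantile normalization the differences of Capza3 (0.41, adjusted p = 7.34e-05, limma) and Actl7a (0.24, adjusted p = 0.01) were positive, so their direction depends on the scaling. Actl7b passed under it as well (0.45, adjusted p = 3.12e-05, limma).

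The KO effect in polysome RNA was then set against that in round spermatids, on separate arrays. It was more negative in polysome RNA for 3 members, against 2.25% of all genes tested. The differences were -1.64 ± 0.29 for Capza3 (adjusted p = 0.0126, limma), -1.64 ± 0.30 for Actrt1 (adjusted p = 0.0138, limma) and -0.90 ± 0.20 for Pfn3 (adjusted p = 0.039, limma), beside a median of -0.15 over all genes. Actrt1, below the filter in polysome RNA alone, passed it here only with the round spermatid arrays in its mean. For the other 7 members the difference lay between -0.22 and 0.32 and did not pass. Total polysome RNA comes from all cells of the testis. The 12 elongating spermatid markers had a median KO difference of -2.75 there and of -0.70 in round spermatids. Their part in the 3 differences was not tested.

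These 3 calls were lost with no filter (adjusted p = 0.0554, 0.0584 and 0.126 for Capza3, Actrt1 and Pfn3) and when near arrays were averaged. The Pfn3 call was lost as well without any 1 of the 6 round spermatid arrays, KO polysome 2 or KO polysome 3, with adjusted p-values from 0.0625 to 0.117. Without the 3 polysome arrays of conflicting description the differences were -1.89 for Capza3, -1.21 for Actrt1 and -1.26 for Pfn3. That leaves WT polysome 3 alone in its group, so the fit takes its spread from the other groups.

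Capzb, whose transcripts are spliced into several beta isoforms, has 4 probe sets, and they differed in direction. Probe set 1417259_a_at, the brightest, and 1453960_a_at ran alike. The second of these had 5142, 5670 and 5518 in KO and 11280, 10220 and 9536 in WT round spermatids, a difference of -0.92 ± 0.11 (adjusted p = 0.00717 over all probe sets). Probe set 1424168_a_at had 2614, 2888 and 2426 in KO and 2293, 2331 and 2398 in WT round spermatids, with every KO array above every WT array, a difference of 0.17 ± 0.11 that did not pass (adjusted p = 0.354). Between stages it was lower in round spermatids, by -0.60 ± 0.09 in KO and -0.67 ± 0.08 in WT, where 1453960_a_at was higher by 0.85 ± 0.08 in KO and 1.54 ± 0.10 in WT. The remaining probe set, 1431668_at, was dim, with means of 206 ± 57.3 in KO and 316.1 ± 33.3 in WT round spermatids (SD, n = 3 each). Which isoform each probe set reads was not analysed here, so the Capzb results above are those of 1417259_a_at. The pairs of probe sets of Actl9 and of Capza1 gave the same direction as each other in the KO comparisons of both stages and of polysome RNA. In the Leydig fraction the Capza1 pair had opposite signs (-0.05 and 0.06), neither with a call. The second Actl9 probe set was at -0.91 ± 0.12 in round spermatids (adjusted p = 0.00875 over all probe sets).

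**Figure D4:**
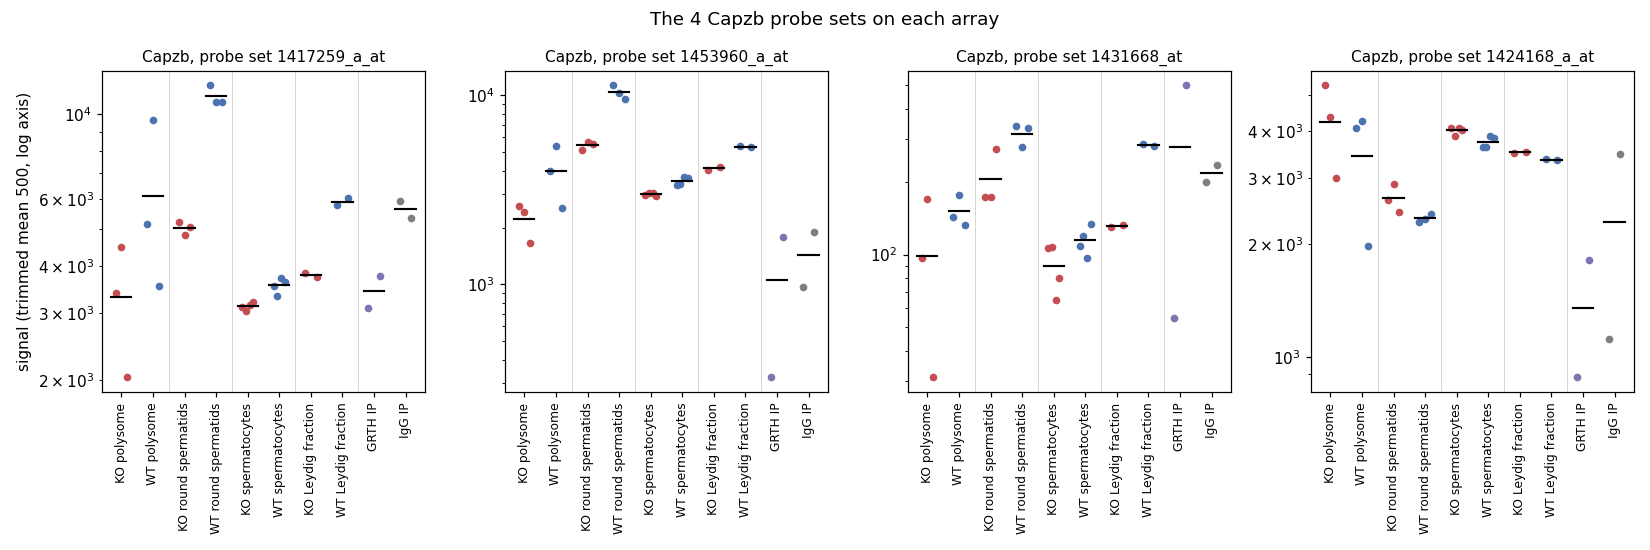
Signal of the 4 Capzb probe sets on every array (log axis that differs between panels), KO in red left of WT in blue and black bars at group means. Probe sets 1417259_a_at, 1453960_a_at and 1431668_at have their highest means in WT round spermatids, while 1424168_a_at is lower in round spermatids than in spermatocytes in both genotypes.

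In the immunoprecipitates of WT polysomes 0 of the 10 members differed between GRTH IP and IgG IP, as did 0 of 9097 genes, which is 0% of those tested. An unadjusted p under 0.05 with limma was found for 364 genes. That is a smaller share than the 0.05 to be reckoned with where no gene differs. Replicate arrays differed widely here: the SD of their log2 differences was 1.01 for GRTH IP and 1.13 for IgG IP, against at most 0.713 for any other pair of replicates. For 8 of 10 members the mean log2 signal was lower with GRTH antibody, as it was for 51.1% of all genes tested. Actl9 had 2285 and 3049 in GRTH IP and 10280 and 6511 in IgG IP, a log2 difference of -1.63 ± 0.60 (unadjusted p = 0.0209, adjusted p = 0.977, limma). Actl7a had 2401 and 2115 in GRTH IP and 10430 and 4677 in IgG IP, also -1.63 ± 0.63 (unadjusted p = 0.0262, adjusted p = 0.977, limma). Neither gene's groups overlapped, and 6 of 10 members were lower without overlap, as were 18.3% of all genes.

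Capza3, the tested member with the largest fall in KO polysome RNA, had 15080 and 8856 in GRTH IP and 20400 and 6682 in IgG IP. The values of the IPs interleaved, at -0.02 ± 0.69 on the log2 scale. Pfn3 had 12100 and 3831 in GRTH IP and 13690 and 4143 in IgG IP, so within each IP its 2 arrays differed more than the IPs did. Capza1 and Pfn4 were the 2 members with a higher mean in GRTH IP, by 0.43 ± 0.60 and 0.42 ± 0.61. Leaving out IgG IP 1, the array of conflicting description, leaves 1 IgG array that is assumed to vary like the GRTH IP pair. With it left out the differences of Capza3 (0.789) and Pfn3 (0.715) were positive, and the other members kept their direction. So small a comparison says little.

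Among 89 measured genes of a wider actin list, polysome RNA had 4 of 62 tested lower in KO, where 5.77% of all genes were lower, and 0 higher. The 4 were Fscn3, a testis fascin that bundles filaments (473.6 ± 186 in KO and 4382 ± 93.1 in WT, -3.25 ± 0.30), Actg2, a smooth muscle actin that is also known from spermatids (-1.76 ± 0.26), Cap2, which binds actin monomers (-1.72 ± 0.31), and Tmod2, a pointed-end capper (-1.04 ± 0.21). In round spermatids 19 of 61 tested were lower in KO and 19 higher, beside 22.4% and 41% of all genes. In spermatocytes 12 of 58 were lower and 9 higher, beside 17.8% and 19.6%. The list median was -0.03 in round spermatids and 0.01 in spermatocytes. In the Leydig fraction 29 of 63 were lower and 26 higher, beside 39.3% and 38.6%, and in the IPs 0 of 68 passed.

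Fscn3 was lower in KO in the other 3 kinds of RNA as well, at -2.24 ± 0.07 in round spermatids, -1.56 ± 0.06 in spermatocytes and -1.67 ± 0.02 in the Leydig fraction. Between round spermatids and spermatocytes it differed by 2.61 ± 0.07 in KO and 3.28 ± 0.06 in WT. Pfn1, the widely expressed profilin, was like Capza1 lower in round spermatids than in spermatocytes (-1.10 ± 0.07 in KO and -1.89 ± 0.06 in WT) and higher in KO round spermatids (2787 ± 178 in KO and 1359 ± 39.1 in WT, 1.03 ± 0.07). Capza2, the other somatic alpha subunit, was at -0.19 ± 0.07 in KO round spermatids (adjusted p = 0.0445, limma) and -0.06 ± 0.05 in spermatocytes (adjusted p = 0.38, limma). Pfn2 was at -0.25 ± 0.07 in round spermatids and 0.25 ± 0.06 in spermatocytes, and both passed.

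Actrt3 and Actl10, relatives of the testis members, were also higher in round spermatids than in spermatocytes, by 2.27 ± 0.06 and 2.17 ± 0.07 in KO and by 2.59 ± 0.08 and 1.57 ± 0.06 in WT. Unlike Actrt1 and Actrt2, Actrt3 had no call in KO round spermatids (3590 ± 233 in KO and 3909 ± 300 in WT, -0.12 ± 0.08, adjusted p = 0.236, limma), and the difference between these genes was not tested. In polysome RNA it was at -1.02 ± 0.29 (adjusted p = 0.0778, limma). Actl10 was lower in KO spermatocytes (-0.74 ± 0.06, adjusted p = 2.01e-05, limma) and at -0.13 ± 0.07 in round spermatids (adjusted p = 0.136, limma). Other genes of the list among the 5 with the smallest adjusted p were Tmod4 (-2.24 ± 0.11), Actg2 (-1.15 ± 0.07) and the formin Diaph1 (1.31 ± 0.08) in KO round spermatids, and Cap1 (-1.44 ± 0.08) and Fmn2 (-0.85 ± 0.08) in KO spermatocytes.

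Patterns over the 10 group means were compared by Pearson r on the log2 scale, as a description of points that share arrays and scaling. Among the members, Capza3 and Actrt1 were alike (r = 0.958), as were Actl7a and Actl9 (0.925), and Capza1 ran against Pfn3 (-0.731). The 3 genes nearest to Capza3 were 1700009N14Rik (0.9961), Hmgb4 (0.9953), which is on the elongating spermatid list, and Dnajc5b (0.9901). Nearest to Actrt1 were Nupr1l, Aif1 and Spata19, and to Actrt2 were Znrf4, Fam187b and Pip5kl1. Actl7a was nearest to Nt5c3b, Tbata and Kif2b, Actl7b to Tigd5, Spata31d1d and Fam135b, and Actl9 to Stard10, Agpat3 and Hapln2. Capzb was nearest to Ctbp2, Lipe and Asb1, and Capza1 to Prepl, Mllt1 and Hdgf. Pfn3 was nearest to Adig, Hsfy2 and Tmco5b, and Pfn4 to A26c3, Nlrp14 and Amn1. For the centred mean of the 8 testis members they were Zfyve1 (0.9944), Fam71e1 (0.9931) and 1700022A21Rik (0.9897).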

How the data were processed

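The authors deposited linear signal intensities of 45101 probe sets per array, made with GCOS per the submitters' processing notes, with no version named there, and the sources used here name no genome build. The values of 24 arrays were scaled to a trimmed mean of 500 (0.02 trimmed at each end) and those of 4 polysome arrays were not, so all arrays were rescaled to 500, which replaced the deposited scale named in the design. Detection calls and depth are not part of the files used here, and the number of arrays limits precision.

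Values were transformed to log2(signal + 16). Probe sets were named from the platform annotation, 64 controls and probe sets with several symbols were left out, and the brightest probe set stood for each of 18193 genes. For each comparison a filter kept 9097 genes, those whose mean over its arrays reached the median gene's, and these were fitted with limma 3.58.1 in R 4.3.3 with data.table version 1.17.8, on its groups alone, with Benjamini-Hochberg adjustment and a threshold of 0.05. The method was tried on simulated data for the KO comparisons of polysome RNA and round spermatids. The simulated noise was independent between arrays, so the shared deviations of same-numbered arrays were not covered. Figures used matplotlib 3.10.9, numpy 2.4.6 and pandas 2.3.3 in Python 3.11.15.

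All 10 members are named, with Ddx25, the 3 genes nearest in pattern to each, Capza2, Pfn1, Pfn2, Actrt3, Actl10 and Fscn3, and up to 5 others of the actin list per comparison, of which the text gives a part. The members, lists and alternatives were chosen with earlier results of these data known. Of 96 genes on the wider actin list, 89 were on the arrays.

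Same-numbered arrays deviated together from their group means across genes (r = 0.436, 0.668 and 0.665 for KO with WT polysome arrays, 0.26 to 0.386 for spermatocytes, 0.138 to 0.247 for round spermatids, and 0.188 to 0.261 between the WT stages). For the KO stages r was 0.193 to 0.206, for the IPs 0.434 and for the Leydig fraction 0.0277. This pairing comes from the data, and the labels give only the numbers. The polysome arrays deposited without scaling were numbers 1 and 2 of both genotypes, so the number there coincides with a difference in processing.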

Additional observations from a re-analysis of the deposited data

Results flagged for a closer look

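The KO effect of 6 members differed between round spermatids and spermatocytes by a test of the difference itself (limma, round spermatids minus spermatocytes, log2 scale). Over all genes tested 46% differed by that test. The difference was -0.96 for Capzb, -0.83 for Actl9, -0.63 for Actrt1 and -0.50 for Pfn4, and it was 0.35 for Capza1 and 0.26 for Pfn3. The KO effect of 3 members differed between polysome RNA and round spermatids by the same kind of test, by -1.64 for Capza3, -1.64 for Actrt1 and -0.90 for Pfn3. Here the share over all genes tested was 2.79%, and Actrt1 passed the filter only with the round spermatid arrays in its mean. With all groups in 1 fit 0 members were called for the stage difference. With near arrays averaged 0 were called for polysome RNA against round spermatids. Among the 20 groups of 4 spermatocyte values, no array stood far from the others.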

How the results depend on the processing

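With 2 to 4 arrays a group, none known to be a separate animal, small differences are limited by the spread between arrays, and those of polysome RNA and the IPs most. Of 90 values per setting, direction and side of the threshold were the same for 90 with a pseudocount of 1 or of 64, 89 with the mean of a gene's probe sets, 84 with centring on the median, 83 with no filter, 81 with the deposited scale, 81 with the replicate block, 80 with each probe set tested, 78 with quantile normalization and 57 with all groups in 1 fit, and for 636 of 680 when 1 array was left out. The deposited scale differed only for the 4 unscaled polysome arrays, so values of comparisons without total polysome RNA could not change under it. In the comparisons with total polysome RNA 0 members were called on that scale. Quantile normalization reversed 4 values: Actl7b in KO round spermatids (0.24), Capza1 in the KO Leydig fraction (0.061), and the round spermatid minus spermatocyte KO effects of Capza3 (0.41) and Actl7a (0.24). The cause of these shifts was not tested.

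The number of members called in polysome RNA (2) was 4 with centring on the median, 6 with all groups in 1 fit, 0 on the deposited scale, 7 with the replicate block and 1 without the arrays of conflicting description, and 1 to 2 when 1 array was left out. All groups in 1 fit gave 1 for spermatocytes, 0 for the Leydig fraction, 5 for the IPs and 0 for the stage difference of the KO effect. Averaging near arrays gave 4 for spermatocytes, 3 for the stage difference and 0 for polysome RNA against round spermatids. Testing each probe set gave 3 for the stage difference and 0 for polysome RNA against round spermatids, where no filter and the deposited scale also gave 0. Leaving out 1 array gave 5 to 7 for the stage difference and 2 to 3 for polysome RNA against round spermatids. The other comparisons gave 7 to 8 (spermatocytes), 8 (round spermatids), 9 (Leydig fraction and WT stages), 10 (KO stages) and 0 (IPs) when 1 array was left out.

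Over all genes, polysome RNA had 577 calls, with 378 without a filter, 199 by probe set, 1272 with all groups in 1 fit, 0 on the deposited scale, 2248 with the replicate block and 294 without the conflicting arrays. Spermatocytes had 3404, with 2152 by probe set, 445 with all groups and 1230 with near arrays averaged. All groups in 1 fit gave 2331 for round spermatids (5765), 841 for the Leydig fraction (7087), 2529 for the IPs (0) and 211 for the stage difference (4186), where near arrays averaged gave 1746. Polysome RNA against round spermatids had 254, with 435 under quantile normalization, 72 without a filter, 7 by probe set, 168 with the mean of probe sets, 0 on the deposited scale, 5 with near arrays averaged and 1669 without the conflicting arrays. Centring on the median changed the lower calls to 2557 of 5391 in round spermatids (2038 of 5765), 6299 of 8037 in the Leydig fraction (3577 of 7087) and 1565 of 3540 for the stage difference (1245 of 4186, and 1687 of 4151 under quantile normalization). The replicate block changed no member's call in round spermatids, the KO stages or the 2 differences of KO effects, and those it changed are given in the report.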
